A study of Mus musculus with 6 samples.

Results

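Bone morphogenetic protein (BMP) signalling was followed through 10 genes in single cells of the mouse aorta. They are the ligands Bmp2, Bmp4 and Bmp6, the receptors Bmpr2, Acvrl1 and Eng, the inhibitory Smads Smad6 and Smad7, and the targets Id1 and Id3. These genes were picked by symbol for their place in the pathway, with earlier results of these data known. They are 10 of the 55450 genes in the deposited matrix. The series holds 6 samples of aortic tissue, 3 of the genotype Best3FL/FL (CON1 to CON3) and 3 of the genotype Best3SMKO (KD1 to KD3), a name that the labels do not spell out. Minced aorta was made into single cells and run on 10x Genomics droplets. The sources used here do not state the Cre driver, the age or sex of the mice, any treatment, or whether animals were pooled.

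BMP ligands are secreted dimers that bring together a type II receptor, such as the one encoded by Bmpr2, and a type I receptor, such as ALK1 encoded by Acvrl1. Eng encodes endoglin, a coreceptor that presents ligand to ALK1 in endothelium. The activated receptors phosphorylate Smad proteins that enter the nucleus and switch on Id1 and Id3, inhibitors of differentiation that block helix-loop-helix transcription factors. They also switch on Smad6 and Smad7, which feed back on the receptors. Mutations in Bmpr2 are known from pulmonary arterial hypertension, and mutations in Acvrl1 and Eng from hereditary haemorrhagic telangiectasia.

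The matrix joins 6 libraries told apart by the suffix of the cell barcodes, and no suffix could be tied to a sample label. The genotypes were therefore not compared, no test was made, and libraries are numbered 1 to 6 by suffix. Best3 itself could not check the labels, since it had 26 UMIs (counted transcript molecules) among 60871 barcodes, between 1 and 13 per library. After filtering, 50769 cells remained, and 11 classes of at least 200 cells were named by markers, with "-like" marking a name that comes from markers alone. The largest were fibroblast-like (16093 cells, median depth 6466 UMIs), smooth muscle-like (13946 cells, 10495.5 UMIs), endothelial-like (8434 cells, 4342.5 UMIs) and macrophage-like cells (3430 cells, 5147.5 UMIs). Library 5 stood apart: it held 842 of 885 mesothelial-like, 407 of 472 B cell-like and 339 of 460 epithelial-like cells. The mesothelial-like class is the least secure, because its fibroblast markers summed to 18199 CPM (counts per 1000000 UMIs) and its mesothelial markers to 709 CPM. Of the barcode sequences, 414 occurred in at least 2 libraries (0.685%).

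Promoter sequence was available from RefSeq (build GRCm38.p6) for 6 members, covering 250 bases before to 50 bases after the start annotated there. For Bmp6, Id3 and Bmpr2 the window lay wholly inside the gene coordinates given below. Their annotated start was therefore downstream of the gene start in those coordinates. Smad complexes are known to bind the palindrome GTCTAGAC, its shorter unit CAGAC, and the GC-rich GGCGCC. Each was searched on both strands, CAGAC also as GTCTG, and GTCTAGAC holds neither CAGAC nor GTCTG. Of 32851 promoters of the same length, 0.213% held GTCTAGAC, 11.9% held GGCGCC and 49.6% held CAGAC. Among the 6 members, GTCTAGAC occurred in Smad6, GGCGCC in Bmpr2, and CAGAC in Bmp6, Eng and Id3, while Bmp4 held none of these letters. The sequences of Smad6 (chr9:64022010-64022309, minus strand), Id3 (chr4:136143572-136143871, plus strand) and Bmp6 (chr13:38345466-38345765, plus strand) are shown because the first holds the rare palindrome, the next holds CAGAC at 2 positions, and Bmp6 had the most restricted expression. Capitals mark the matches. Positions are counted back from the base just before the annotated start of the window. The matches begin at -4 in Smad6, at -167 and -68 in Id3, and at -119 in Bmp6.
Smad6 promoter: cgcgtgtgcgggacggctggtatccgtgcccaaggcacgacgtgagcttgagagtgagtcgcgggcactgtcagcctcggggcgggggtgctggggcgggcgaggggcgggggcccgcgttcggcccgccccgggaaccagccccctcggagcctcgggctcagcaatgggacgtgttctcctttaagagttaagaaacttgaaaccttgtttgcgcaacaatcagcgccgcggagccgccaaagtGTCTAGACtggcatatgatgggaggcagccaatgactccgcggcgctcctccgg
Id3 promoter: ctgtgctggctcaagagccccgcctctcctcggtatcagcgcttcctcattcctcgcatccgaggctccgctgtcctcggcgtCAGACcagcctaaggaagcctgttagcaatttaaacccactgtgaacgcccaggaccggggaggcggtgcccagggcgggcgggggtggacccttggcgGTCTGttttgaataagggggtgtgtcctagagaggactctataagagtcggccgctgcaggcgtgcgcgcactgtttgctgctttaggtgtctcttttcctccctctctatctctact
Bmp6 promoter: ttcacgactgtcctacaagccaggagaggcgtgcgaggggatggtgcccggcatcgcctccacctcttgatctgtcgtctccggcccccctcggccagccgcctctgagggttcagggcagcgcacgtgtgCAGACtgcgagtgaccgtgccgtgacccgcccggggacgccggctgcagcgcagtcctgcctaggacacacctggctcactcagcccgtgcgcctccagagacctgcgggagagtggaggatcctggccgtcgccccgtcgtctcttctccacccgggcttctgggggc
A match describes these letters and is not evidence of binding.

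Seen across the 11 classes, 9 of the 10 members had their highest pooled level in endothelial-like cells, and Bmp2 had its highest in macrophage-like cells. Over all 13269 genes of at least 10 CPM in some class, 7.02% were highest in endothelial-like cells. A stricter rule placed a gene in a class when its CPM was at least 4 times that of every other class and highest in every library with at least 20 cells of the class. It placed 1 member, Bmp6, in endothelial-like cells. By the same rule 8.86% of all genes were placed in some class, and 0.497% in the endothelial-like class. These are rules of size, not tests, and the members were chosen with earlier results of these data known. The shares of all genes give scale only. The count of 9 rests on the classes as named: Smad7 was highest in erythroid-like cells with at least 200 genes per cell, and in adipocyte-like cells at a Leiden resolution of 1.0 or with member genes allowed in clustering. Id3 was highest in pericyte-like cells with at least 1000 genes per cell or at that resolution, and in fibroblast-like cells under the settings that turned its sign. The other 7 endothelial-like peaks held under every setting run.

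**Figure D1:**
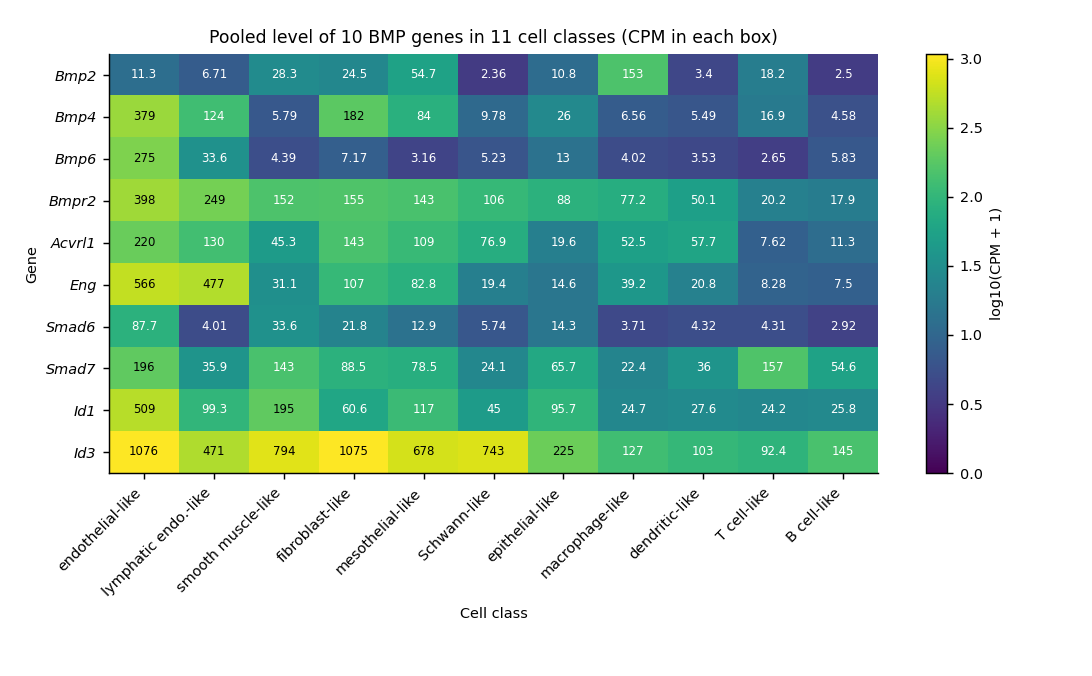
Pooled CPM of the 10 genes (rows) in 11 cell classes (columns), with colour on a log10(CPM + 1) scale and the CPM in each box. The endothelial-like column is the brightest for all genes but Bmp2, which peaks in macrophage-like cells at 153 CPM, and Id3 is nearly as high in fibroblast-like cells.

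Of the 3 ligands, Bmp4 and Bmp6 were both highest in endothelial-like cells, and Bmp2 was highest in macrophage-like cells. Bmp2 (ENSMUSG00000027358, chr2:133552159-133562885, plus strand, GRCm38) encodes a ligand known for osteogenic activity. It reached 153 CPM in macrophage-like cells (95% counting interval 147 to 159), with 207, 164, 178, 134, 107 and 181 CPM in libraries 1 to 6. Library 5 was lowest and library 1 highest, yet each of the 6 values exceeded every library value of smooth muscle-like cells (21.8 to 38.7 CPM) and fibroblast-like cells (19.03 to 27.5 CPM). Endothelial-like cells had 11.3 CPM (8.80 to 13.8 over libraries). The next class, mesothelial-like, had 54.7 CPM, nearly all of it from library 5. A UMI of Bmp2 was found in 25.4% of macrophage-like and 4.23% of endothelial-like cells, and in 15.4% and 1.80% after thinning each cell to 2000 UMIs. Without library 5, where the mesothelial-like class falls below 200 cells, Bmp2 was placed in macrophage-like cells too.

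Macrophage-like cells were clustered again, after the class levels had been seen, to find where Bmp2 lay. Subclusters 0 and 2, with 934 and 606 cells, held 236 and 272 CPM. In subcluster 2 Bmp2 itself was the first of the 10 leading genes, although it had been kept out of the genes used for clustering, and the others included Mybpc3, Thbd, Areg, Cxcl1, Cd14 and Vsig4. Subcluster 0 was led by the chemokine genes Cxcl1 and Cxcl2 and held Il1b at 483 CPM. Subcluster 1, with 877 cells, had 79.8 CPM of Bmp2 and the highest levels of the resident macrophage genes Lyve1 (2429 CPM) and Folr2 (1340 CPM). Cd163 (1749 CPM) and F13a1 (3426.5 CPM) were also highest there, but Mrc1 was highest in subcluster 2, at 2552 CPM against 2523 CPM. Lyve1 and Folr2 were at 1245 and 715 CPM in subcluster 2, and at 963 and 523 CPM in subcluster 0. Library values of Bmp2 were 160 to 323 CPM in subcluster 0, 170 to 360 CPM in subcluster 2 and 28.7 to 127 CPM in subcluster 1, so the first pair did not overlap the last. The summed level of 10 immediate early genes, which dissociation is known to raise, was 10195, 16643 and 12229 CPM in subclusters 0, 1 and 2. It was highest in subcluster 3 (23173 CPM, Bmp2 106 CPM), and lowest in subclusters 4 (6997 CPM, Bmp2 47.1 CPM) and 5 (2988 CPM, Bmp2 16.5 CPM). The part of these genes in the Bmp2 levels was not tested. The monocyte genes Plac8 and Ly6c2 were among the leading genes of subcluster 4.

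Bmp4 (ENSMUSG00000021835, chr14:46383520-46390669, minus strand) encodes a ligand made by many mesenchymal and endothelial cells. Endothelial-like cells had 379 CPM, and 364, 484, 339, 390, 396 and 238 CPM in libraries 1 to 6. Fibroblast-like cells had 182 CPM (216, 159, 145, 215, 167 and 158 CPM). The endothelial-like value was the higher in 6 of 6 libraries, and the lowest of them, in library 6, still lay above the highest fibroblast-like value. Lymphatic endothelial-like cells came next at 124 CPM, where library 3 was low at 31.4 CPM and the others lay between 119 and 155 CPM. Smooth muscle-like cells had 5.79 CPM. After thinning, 31.1% of endothelial-like, 26.3% of fibroblast-like and 1.26% of smooth muscle-like cells held a UMI. Before thinning these shares were 40.4%, 45.7% and 4.95%, with fibroblast-like cells deeper than endothelial-like ones.

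Bmp6 (ENSMUSG00000039004, chr13:38345107-38500302, plus strand) encodes a ligand known as the endothelial signal that sets liver hepcidin. Its level was 275 CPM in endothelial-like cells, with 215, 341, 243, 269, 280 and 292 CPM in libraries 1 to 6. Lymphatic endothelial-like cells followed at 33.6 CPM (13.1 to 61.9 over libraries), a ratio of 8.18, and the 2 ranges were far apart. The other 9 classes had between 2.65 CPM (T cell-like) and 13.01 CPM (epithelial-like). Thinned endothelial-like cells held a UMI in 32.01% of cases and thinned smooth muscle-like cells in 0.865%, against 45.5% and 3.68% before thinning. Among all genes of at least 20 CPM in some class, the 2 whose log2(CPM + 5) profiles were most like that of Bmp6 were Spaar (Pearson r = 0.98 over the 11 classes) and Samd12 (0.97).

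The receptors were shared more widely. Bmpr2 (ENSMUSG00000067336, chr1:59763400-59879014, plus strand), the type II receptor, stood at 398 CPM in endothelial-like cells, and at 346, 480, 390, 357, 419 and 423 CPM in libraries 1 to 6. It was 249 CPM in lymphatic endothelial-like (187 to 327), 155 CPM in fibroblast-like (146 to 183) and 152 CPM in smooth muscle-like cells (133 to 176). Endothelial-like cells lay above all of these, while the fibroblast-like and smooth muscle-like ranges overlapped. The lowest level was 17.9 CPM, in B cell-like cells. Acvr1, another type I receptor gene, had one of the 2 profiles most like that of Bmpr2 across the classes (r = 0.96), after Dip2a (0.98).

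Acvrl1 (ENSMUSG00000000530, chr15:101128522-101145336, plus strand) reached 220 CPM in endothelial-like cells, with 207, 219, 204, 197, 289 and 220 CPM in libraries 1 to 6. Library 5 stood above the rest. Fibroblast-like cells had 143 CPM (132 to 162 over libraries) and lymphatic endothelial-like cells 130 CPM (109 to 141), and these 2 ranges overlapped below the endothelial-like one. Eng (ENSMUSG00000026814, chr2:32646595-32682669, plus strand) was 566 CPM in endothelial-like cells, with 454, 605, 555, 563, 573 and 671 CPM in libraries 1 to 6. Lymphatic endothelial-like cells had 477 CPM (400 to 535), so the ranges overlapped, although the endothelial-like value was the higher in 6 of 6 libraries. All other classes were at or below 107 CPM, the level in fibroblast-like cells. Smooth muscle-like cells thus had Bmpr2 at 152 CPM beside Acvrl1 at 45.3 CPM and Eng at 31.1 CPM, each the lower against endothelial-like cells in every library.

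The 2 ligands known to bind ALK1 most tightly are encoded by Gdf2 and Bmp10 and circulate in blood. They were named after their values had been seen. Bmp10 had 0 UMIs in the 11 classes, which allows at most 0.00841 CPM over these cells for counting error alone, and Gdf2 was at or below 4.51 CPM in each class.

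Smad6 (ENSMUSG00000036867, chr9:63953076-64022059, minus strand), whose product acts mainly against BMP receptors, had 87.7 CPM in endothelial-like cells. Libraries 1 to 6 gave 68.4, 115, 75.2, 75.7, 114 and 80.6 CPM, with libraries 2 and 5 high. Smooth muscle-like cells followed at 33.6 CPM, with 29.3, 51.6, 24.8, 26.5, 44.2 and 26.1 CPM, and the same 2 libraries were high there. The endothelial-like range lay above the smooth muscle-like one. Unlike Eng and Bmpr2, Smad6 was low in lymphatic endothelial-like cells, at 4.01 CPM. Thinned cells held a Smad6 UMI in 13.2% of endothelial-like and 6.504% of smooth muscle-like cells.

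Smad7 (ENSMUSG00000025880, chr18:75367529-75395935, plus strand) answers to both BMP and TGF-beta and blocks both. It was 196 CPM in endothelial-like cells (177, 225, 210, 171, 201 and 217 CPM in libraries 1 to 6), 157 CPM in T cell-like cells (87.1 to 189) and 143 CPM in smooth muscle-like cells (108 to 186). These 3 ranges overlapped, but the endothelial-like value was above the T cell-like one in 6 of 6 libraries. Macrophage-like cells were lowest at 22.4 CPM.

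Id1 (ENSMUSG00000042745, chr2:152736251-152737410, plus strand) is a direct target of BMP Smads in endothelium. Endothelial-like cells had 509 CPM, with 577, 454, 489, 547, 436 and 524 CPM in libraries 1 to 6. Smooth muscle-like cells had 195 CPM (156, 169, 229, 175, 199 and 225 CPM), and every endothelial-like value exceeded every smooth muscle-like one. The mesothelial-like class, next at 117 CPM, gave 788 CPM in the 35 cells of library 2 and 63.4 CPM in the 842 cells of library 5. Id3 (ENSMUSG00000007872, chr4:136143497-136145755, plus strand) was broad. It reached 1076 CPM in endothelial-like, 1075 CPM in fibroblast-like, 794 CPM in smooth muscle-like and 743 CPM in Schwann-like cells. Endothelial-like cells were above fibroblast-like cells in 4 of 6 libraries, and the sign of this difference turned under several other settings, so the 2 classes were not told apart. Library 3 was high in fibroblast-like cells at 1556 CPM, against 951 to 1121 CPM in the others.

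**Figure D2:**
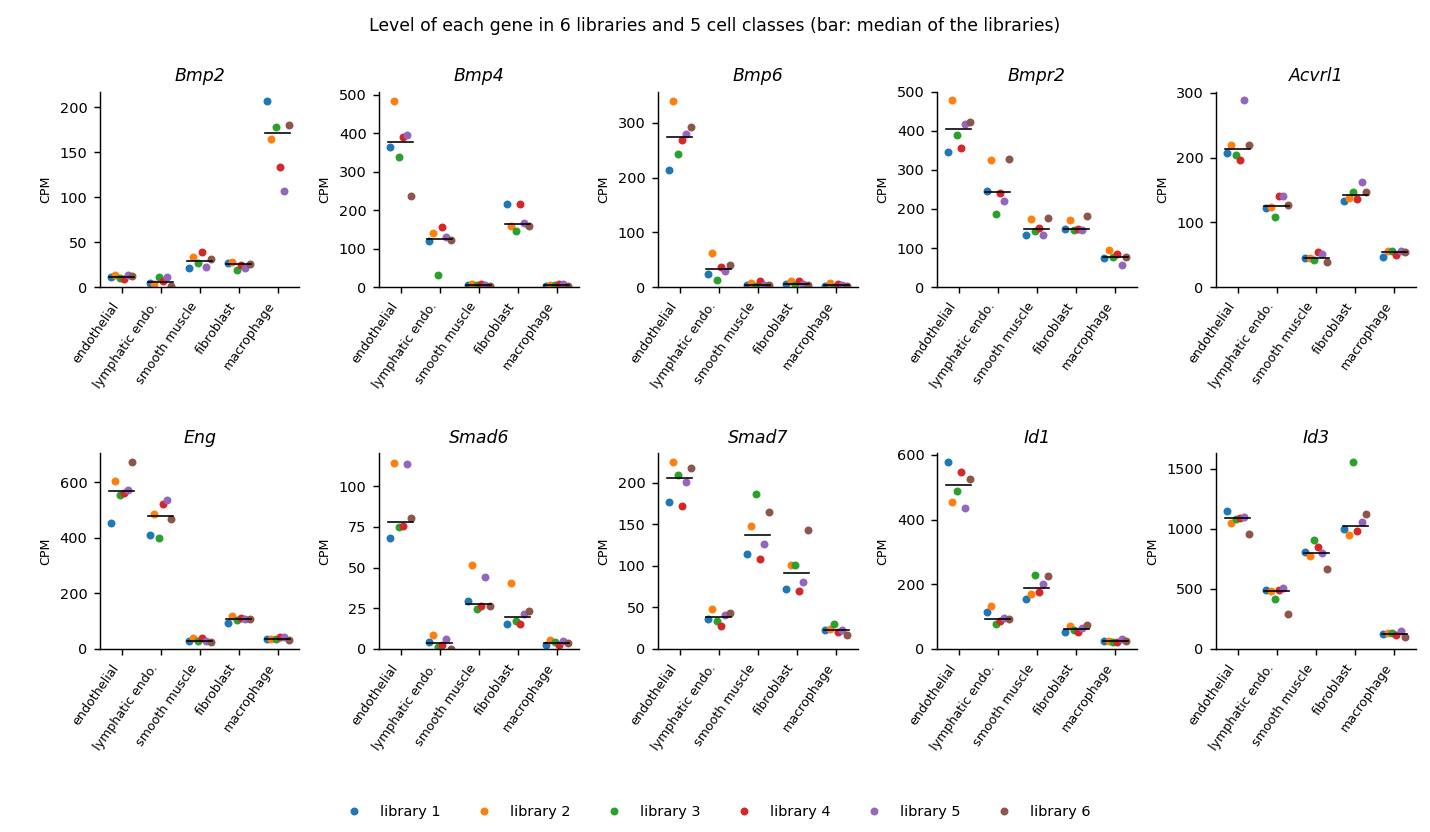
CPM of each gene (vertical axes, from 0) in 5 cell classes, with 1 point per library and a bar at the median of the 6 libraries. Points of endothelial-like cells lie above those of all 4 other classes for Bmp4, Bmp6, Bmpr2, Acvrl1, Smad6 and Id1, while those of Smad7 and Id3 overlap with other classes and Bmp2 is high in macrophage-like cells.

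Endothelial-like cells were then split into 10 subclusters with the 10 members and their pathway left out of the genes used. Subclusters 1 (1639 cells, led by Sfrp1, Gkn3, Gja5 and Isl1) and 5 (757 cells, led by Klk10, Gkn3 and Coch) were large artery-like. Subcluster 6 (673 cells, Alpl) was arteriolar-like, subclusters 0 and 2 (1779 and 1252 cells, Car4, Timp4 and Btnl9) were capillary-like, and subclusters 3, 4 and 7 (1038, 841 and 319 cells, Ackr1) were venous-like. The name is least secure for subclusters 3 and 7: Prox1, known from lymphatic vessels and venous valves, led both beside Ackr1, and Nts, which with Prox1 also led the lymphatic endothelial-like class, led subcluster 3. Lymphatic markers summed to 268 CPM in subcluster 3 and 13250 CPM in that class. Subcluster 0 had a median of 2231 UMIs and subcluster 7 of 1796 UMIs, the others named here between 4152 and 6086. The remaining 88 and 48 cells stayed unnamed. A member was called higher or lower when it was at least 2-fold from the rest of the endothelial-like cells, with 20 CPM or more on either side and every library of 20 cells or more moving the same way. By this rule 7 of the 10 members differed in at least 1 subcluster, against 39.6% of the 8108 genes looked at in the same way.

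The large artery-like cells carried both ligand and inhibitor. In subcluster 1, Bmp4, Bmp6, Smad6 and Smad7 were higher, 4 of 9 members with enough UMIs, where 6.22% of all genes were higher. The rest of the class had 234 CPM of Bmp4 and subcluster 1 had 948 CPM, with 976, 1144, 674, 1121, 968 and 552 CPM in libraries 1 to 6. Bmp6 was 682 CPM against 171 CPM, with 499, 833, 550, 621, 739 and 787 CPM. For both genes the subcluster was above the rest in 6 of 6 libraries. Smad6 was 182 CPM against 63.8 CPM (130 to 242 over libraries), and Smad7 367 CPM against 153 CPM (315 to 422). Id3 had its highest level of the 8 subclusters here, 1623 CPM (1302 to 1779), 1.73 times the rest and so short of a call. Id1 was 453 CPM and Eng 408 CPM, below the rest in 5 and 6 of 6 libraries and also within 2-fold.

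Subcluster 5 had Bmp4 at 725 CPM (567 to 909) and Smad6 at 173 CPM (146 to 192), the 2 members called higher, against 4.03% of all genes. The Bmp4 call was lost without library 4, and the Smad6 call with cells thinned to 2000 UMIs. Its Bmp6 was 410 CPM (310 to 473) and its Smad7 313 CPM (274 to 363), above the rest in 6 of 6 libraries at ratios of 1.60 and 1.73. Eng was at its lowest of the 8 subclusters, 304 CPM (242 to 395). At 2000 UMIs per cell, Bmp4 and Bmp6 were found in the same cell in 45.8% of subcluster 1 (95% interval 43.1% to 48.5%) and 32.5% of subcluster 5 (29.0% to 36.3%). The other 6 subclusters held between 0.911% and 6.07% of such cells. Taken singly, Bmp4 and Bmp6 were found in 65.1% and 63.7% of subcluster 1, and in 57.3% and 46.2% of subcluster 5. Whether the joint shares exceed what these single shares give was not tested. The intervals cover counting error of cells pooled over libraries.

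Capillary-like cells had little Bmp4, and Bmp6 within 2-fold of the rest. Bmp4 was 18.6 CPM (10.1 to 24.2) in subcluster 0 and 19.5 CPM (4.61 to 27.5) in subcluster 2, while Bmp6 was 174 CPM (115 to 199) and 259 CPM (172 to 320). In subcluster 0 this was below the rest (289 CPM) in 6 of 6 libraries, and in subcluster 2 in 4 of 6. Id1 was high beside these, 748 CPM (599 to 945) in subcluster 0 and 598 CPM (450 to 669) in subcluster 2, above the rest in 6 of 6 libraries but within 2-fold. Bmp4 and Smad6 were called lower in subcluster 0 (2 of 9 members, 7.66% of all genes), and Bmp4, Bmpr2, Smad6 and Smad7 in subcluster 2 (4 of 9 members, 9.04%). Bmpr2 in subcluster 2 was 186 CPM (135 to 242) against 438 CPM in the rest. Immediate early genes summed to 4977 CPM in subcluster 0 and 19223 CPM in subcluster 2, and their part in these levels was not tested.

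Subclusters 3 and 4 were low in Bmp6, with Bmp4 near the rest in the first and lower in the second. Subcluster 3 had Bmp4 at 404 CPM (359 to 466) and Bmp6 at 73.6 CPM (50.1 to 113), and only Bmp6 and Smad6 were called lower (2 of 9 members, 6.33% of all genes). Its Eng, at 924 CPM (763 to 1107), was the highest of the 8 subclusters. Subcluster 4 had Bmp4 at 145 CPM (105 to 229), Bmp6 at 22.6 CPM (13.7 to 30.3), Smad6 at 14.5 CPM, Smad7 at 74.5 CPM and Id1 at 269 CPM. All 5 were lower there (5 of 9 members, 5.45% of all genes), but the Id1 call, at a ratio of 0.498, was lost without library 1, 3 or 6. Subcluster 7 had Bmp6, Smad6, Smad7 and Id1 lower, but 20.9% of all genes were lower in these shallow cells. With cells thinned, 134 of its cells were left, under the 200 asked for, so its calls were not checked that way. The Id1 call was lost without library 1, 2, 3 or 6.

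Arteriolar-like subcluster 6 differed from both large artery-like subclusters in its ligands. Bmp4 was 80.3 CPM (35.0 to 103) and Bmp6 90.8 CPM (41.0 to 115), both lower (2 of 10 members, 5.09% of all genes). Bmp2 was 36.7 CPM (25.9, 38.8, 36.9, 34.3, 44.95 and 40.5 CPM in libraries 1 to 6) against 9.24 CPM in the rest, the 1 member called higher, against 3.64% of all genes. Smad6 at 129 CPM and Smad7 at 282 CPM were nonetheless above the rest in 6 of 6 libraries, within 2-fold. Id1 had its highest level here, 826 CPM (698 to 1040).

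**Figure D3:**
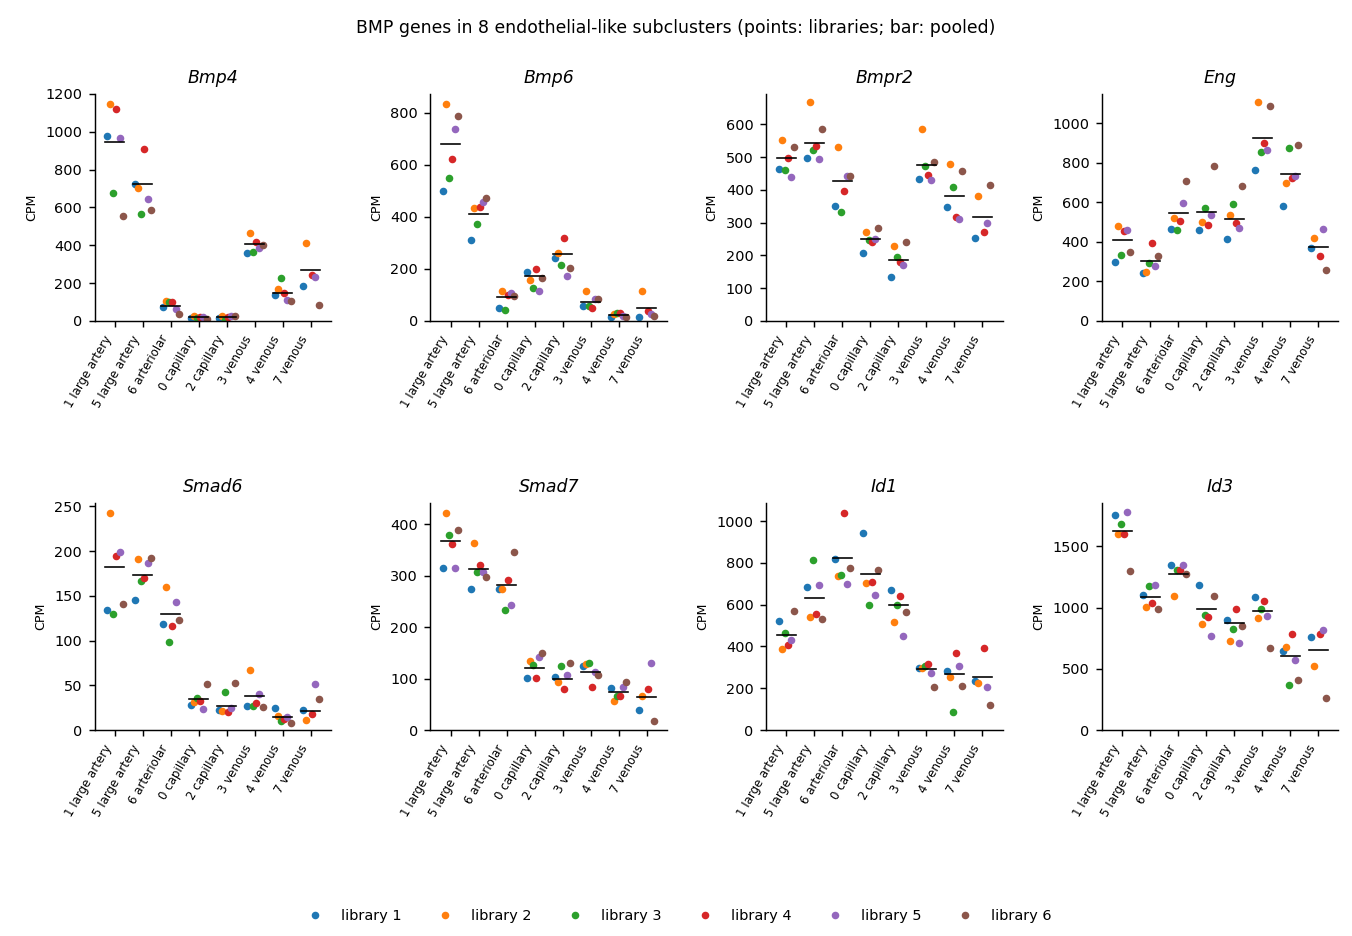
CPM (vertical axes, from 0) of 8 genes in 8 endothelial-like subclusters, with 1 point per library of at least 20 cells and a bar at the pooled level. Bmp4 and Bmp6 are both high in subclusters 1 and 5, Bmp4 is lowest in the capillary-like subclusters 0 and 2, Bmp6 is lowest in subcluster 4, and Smad6 and Smad7 are high in subclusters 1, 5 and 6.

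Smooth muscle-like cells formed 3 clusters: cluster 0 (9888 cells, led by Sost, Mylk4 and Itga8 beside contractile genes), cluster 7 (2106 cells, Actc1, Des, Notch3 and Pln) and cluster 8 (1952 cells, Rgs5). By the same rule 2 of the 10 members differed, Bmp2 and Eng, against 10.3% of the 6699 genes looked at in the same way. Bmp4 and Bmp6 did not reach 20 CPM on either side for any cluster, so they could not be called. Bmp2 was 87.6 CPM in cluster 7, with 89.6, 110, 122, 84.1, 60.3 and 83.5 CPM in libraries 1 to 6, and 17.3 CPM (12.7 to 26.4) in cluster 0. The lowest cluster 7 value was above the highest value of both other clusters. Eng was 14.6 CPM (12.5 to 21.01) in cluster 8, and 33.6 and 36.8 CPM in clusters 0 and 7. By direction, Bmp2 was higher in cluster 7 (6.71% of all genes were) and lower in cluster 0 (3.09%), and Eng was lower in cluster 8 (0.953%). Cluster 8 made up 1.71% to 24.4% of the class over libraries and cluster 7 made up 5.46% to 36.3%, so class levels can move with these shares. Immediate early genes summed to 6667 CPM in cluster 0 and 13999 CPM in cluster 7, and their part in the Bmp2 difference was not tested.

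Bmp6 was 19.5 CPM in cluster 7 (11.6 to 26.0 over libraries), just under the 20 CPM the rule asks for, and 2.07 and 1.65 CPM in clusters 0 and 8. Endothelial markers there summed to 178 CPM, 2.25% of their sum in endothelial-like cells, while Bmp6 was at 7.09% of its endothelial-like level. All 9 markers had UMIs in smooth muscle-like cells, from 2.43 CPM for Kdr to 49.3 CPM for Pecam1.

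Fibroblast-like cells were compared in the same way, a step added after the data had been seen. Bmp4, Bmp2 and Bmp6 differed between the 3 clusters of at least 200 cells, against 10.9% of all genes that did. Cluster 1 (7736 cells, led by Smoc2 and Fmod) had Bmp4 at 270 CPM, with 312, 257, 227, 365, 218 and 209 CPM in libraries 1 to 6. Cluster 2 (6680 cells, Clec3b and C7) had 115 CPM (81.4 to 138) and cluster 11 (1406 cells, Pi16 and Cd248) had 33.7 CPM (19.5 to 43.2). The 3 ranges did not overlap. Bmp4 was called higher in cluster 1 (1.98% of all genes were) and lower in cluster 11 (4.94%), and Bmp2 lower in cluster 2 (1.74%). Cluster 11 instead had Bmp2 at 65.5 CPM (36.3 to 78.0), against 20.5 and 12.8 CPM in clusters 1 and 2, and Bmp6 at 31.3 CPM (14.9 to 45.2), against 2.64 and 3.16 CPM, both called higher where 4.4% of all genes were. Endothelial markers in cluster 11 were at 1.63% of their sum in endothelial-like cells, and Bmp6 was at 11.4% of its endothelial-like level.

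**Figure D4:**
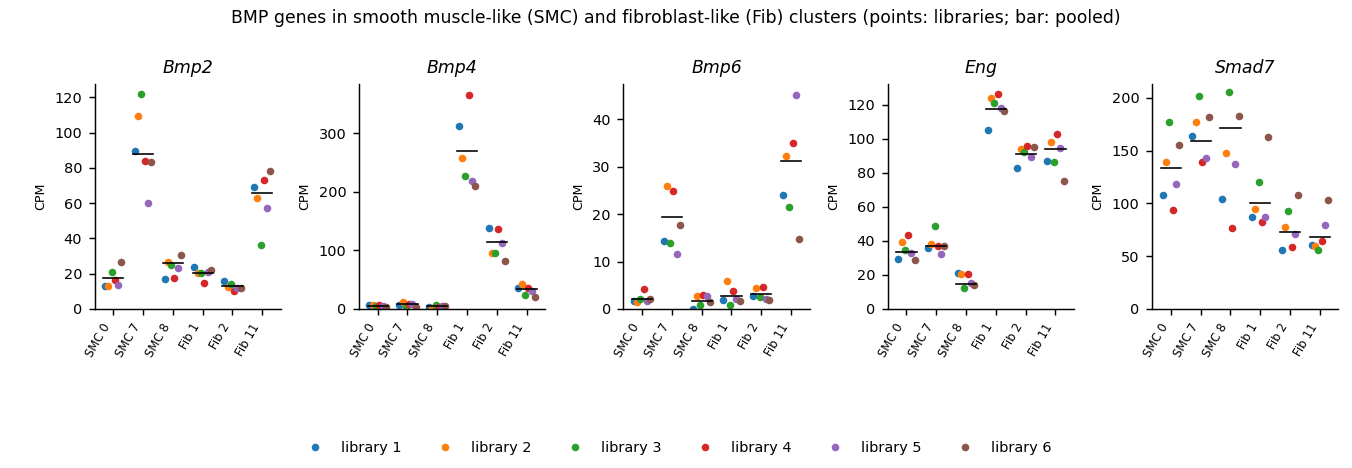
CPM (vertical axes, from 0) of 5 genes in the smooth muscle-like (SMC) and fibroblast-like (Fib) clusters, with 1 point per library and a bar at the pooled level. Bmp2 is high in SMC cluster 7 and Fib cluster 11, Bmp4 steps down from Fib cluster 1 to 2 to 11, and Bmp6 is raised in SMC cluster 7 and Fib cluster 11 at levels under 50 CPM.

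Spread between libraries was taken as the top library value divided by the bottom one, for genes that had 50 UMIs or more in each. A ratio of at least 2 was reached by 2 of 10 members in smooth muscle-like cells (7.42% of all genes), 2 of 9 in fibroblast-like cells (5.52%), 1 of 9 in endothelial-like cells (4.76%) and 0 of 5 in macrophage-like cells (8.69%). The median ratio of the members was 1.67, 1.46, 1.47 and 1.52 in these classes, against 1.33, 1.36, 1.37 and 1.43 for all genes. With genotypes unknown, these ratios mix genotype, animal and handling, which cannot be told apart.

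Bmp6 in smooth muscle-like cells had the widest ratio of the members, 4.65. Library 4 had 10.9 CPM, library 2 had 6.67 CPM and the other 4 lay between 2.35 and 3.34 CPM. Cluster 7, where Bmp6 was highest, held 385 of its 633 UMIs in the class. This cluster made up 36.3% of the class in library 4 and 22.3% in library 2, and 5.46% to 14.8% in the others. Endothelial markers summed to 190 CPM in library 4 and 118 CPM in library 2. In the other libraries they summed to 140, 71.8, 107 and 77.6 CPM (libraries 1, 3, 5 and 6). Within cluster 7 the values were closer, 25.0 CPM in library 4 and 26.0 CPM in library 2, against 11.6 to 17.7 CPM. Cluster 0 alone still had library 4 highest, at 4.11 CPM against 1.52 to 2.14 CPM in the others. The part of the cluster shares in the ratio was not tested.

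Smad6 had ratios of 2.08 in smooth muscle-like and 2.64 in fibroblast-like cells, with library 2 highest in both. In fibroblast-like cells library 2 was at 40.7 CPM and the others between 15.5 and 23.1 CPM. A small cluster led by Tbx20, Prg4 and Wif1, with 185 of its 193 cells in library 2, held Smad6 at 143 CPM and Smad7 at 229 CPM. Without it, Smad6 in fibroblast-like cells of library 2 was 27.1 CPM. In smooth muscle-like cells, cluster 0 alone gave 53.1 CPM in library 2 and 45.3 CPM in library 5, against 25.6 to 29.0 CPM. Smad7 in fibroblast-like cells was widest through library 6, at 143 CPM against 69.7 to 101 CPM. Bmp4 in endothelial-like cells had a ratio of 2.04, between library 2 and library 6.

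Smad7 in smooth muscle-like cells varied 1.72-fold, under the ratio of 2, with 114, 147, 186, 108, 126 and 165 CPM in libraries 1 to 6. Cluster 0 alone kept the order, with 108, 139, 178, 93.99, 118 and 156 CPM. Libraries 3 and 6 were highest in each of the 3 clusters. Libraries 1 and 4 were lowest in clusters 0 and 8, and libraries 4 and 5 (139 and 143 CPM) in cluster 7. Id1 in the class was also highest in libraries 3 and 6, at 229 and 225 CPM, against 156 to 199 CPM. Its ratio was 1.47, where the median of all genes in the class was 1.33. Bmp4 and Bmp2 in the class had wider ratios than Smad7, 1.99 and 1.78, also under 2.

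A list of 54 other BMP pathway genes, all in the matrix, gave the setting of the members. Of these, 40 reached 10 CPM in some class and 2 were placed in 1 class: Sostdc1, a secreted BMP antagonist, in Schwann-like cells (595 CPM against at most 36.6 CPM elsewhere), and Tll1, a protease of the chordin-cleaving family, in lymphatic endothelial-like cells (48.9 against 10.0 CPM). The 2 placed of 40 compare with 8.86% of all genes. Of the 40, 9 were highest in fibroblast-like, 7 in endothelial-like and 6 in smooth muscle-like cells, where 5.51%, 7.02% and 9.29% of all genes were highest. Other ligands were scarce: of 10, 3 reached 10 CPM. Bmp3, an atypical BMP, was 32.4 CPM in smooth muscle-like cells and 50.3 CPM in epithelial-like cells, Bmp7 was at most 28.2 CPM, in T cell-like cells, and Bmp5 at most 27.8 CPM, in mesothelial-like cells.

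The type I receptor gene Bmpr1a differed from Acvrl1 in its highest class. Smooth muscle-like cells led with 203 CPM (173 to 250 over libraries), with 120 CPM in fibroblast-like, 44.9 CPM (34.9 to 53.7) in endothelial-like and 9.23 CPM in lymphatic endothelial-like cells. Acvr1, its relative, was highest in endothelial-like cells at 53.0 CPM, and the coreceptor gene Rgmb in Schwann-like cells at 77.4 CPM. The signal-carrying Smad1 and Smad5 peaked in lymphatic endothelial-like cells, at 410 CPM (371 to 509) and 148 CPM, where Smad6 was at 4.01 CPM. Endothelial-like cells had Smad1 at 139 CPM (106 to 170). Smad4, the partner common to all such Smads, was even, between 60.9 and 114 CPM.

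Of the 19 antagonists and modulators, 7 of the 15 that reached 10 CPM were highest in fibroblast-like cells, against 5.51% of all genes. Fstl1, a follistatin relative, had 967 CPM there. Nbl1, which encodes a DAN family antagonist, reached 1541 CPM in mesothelial-like and 578 CPM in fibroblast-like cells. Crim1, which encodes a transmembrane protein that binds BMPs, was the 1 gene of this group highest in endothelial-like cells, at 548 CPM, with 507 CPM in lymphatic endothelial-like cells. Of the 9 targets that reached 10 CPM, 4 peaked in endothelial-like cells, against 7.02% of all genes, Gata6 among them at 246 CPM. Id2, a relative of Id1 and Id3, was instead highest in T cell-like cells at 559 CPM and lower in endothelial-like cells, at 168 CPM. Tmem100, a known ALK1 target in endothelium, reached 161 CPM in fibroblast-like cells, its highest class, and was 17.9 CPM in endothelial-like cells.

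**Figure D5:**
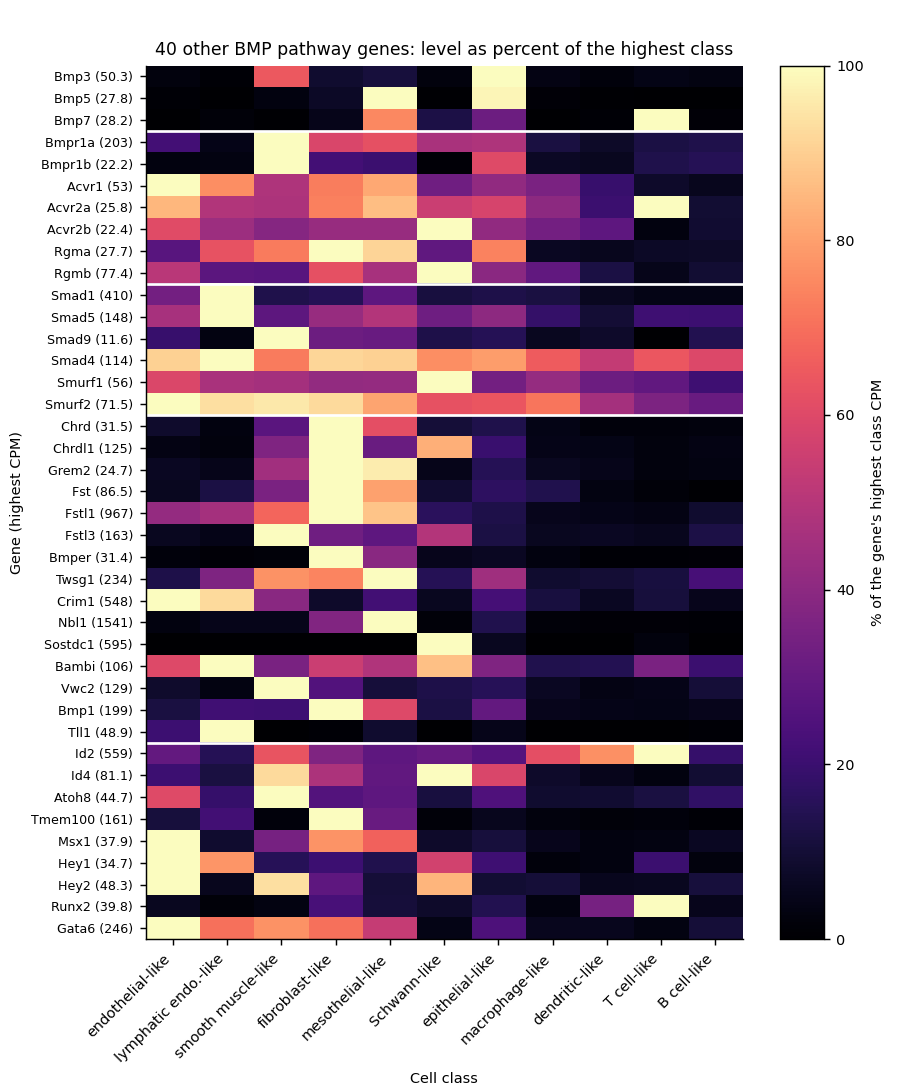
Level of the 40 other pathway genes that reached 10 CPM (rows, highest CPM in brackets, white lines between ligands, receptors, Smads, antagonists and targets) in 11 cell classes, as a percent of each gene's highest class. Of the 15 antagonists shown, 7 are brightest in the fibroblast-like column, Smad1 and Smad5 are brightest in lymphatic endothelial-like cells, and Bmpr1a is brightest in smooth muscle-like cells.

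Within endothelial-like cells the large artery-like subcluster 1 had 9 of 25 list genes higher and 4 lower, against 6.22% and 8.49% of all genes. In subcluster 0, 2 of 22 list genes were higher (6.24% of all genes), and in subcluster 2, 3 of 24 (6.55%). Subclusters 3 and 4 had 1 of 22 each (4% and 3.1%). Subclusters 5, 6 and 7 had 2 of 21, 3 of 24 and 0 of 21 higher (4.03%, 3.64% and 2.52%). Lower were 7 of 22 in subcluster 0 (7.66% of all genes), 8 of 24 in subcluster 2 (9.04%), 6 of 22 in subcluster 3 (6.33%) and 8 of 22 in subcluster 4 (5.45%). Subclusters 5, 6 and 7 had 4 of 21, 2 of 24 and 6 of 21 lower (7.81%, 5.09% and 20.9%). In subcluster 1, Bmpr1a was 138 CPM (110 to 149 over libraries) against 21.3 CPM in the rest. Acvr1 in subcluster 1 was 123 CPM (101 to 136) against 35.4 CPM, and Gata6 was 533 CPM (497 to 565) against 173 CPM. Id2 was 296 CPM against 136 CPM, and Fstl1 was 1031 CPM against 248 CPM. Smad1 was lower, at 57.5 CPM (39.4 to 72.3) against 159 CPM. Subcluster 1 thus had the type I receptors Bmpr1a and Acvr1 called higher while Acvrl1, at 210 CPM against 222 CPM, was not.

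Similarity of profiles across the 11 classes, given as Pearson r of log2(CPM + 5), describes these pooled classes, which share libraries and differ in depth. Between members the highest values were 0.89 for Smad6 with Id1 and 0.89 for Bmpr2 with Acvrl1, and Bmp2 had none above 0.16. Outside the members, Bmp2 was most like Slc41a2 and Cxcl13 (0.86 each), Bmp4 like Meox2 (0.96) and Fmo1 (0.95), and Acvrl1 like Reep3 (0.96) and Plod3 (0.94). Eng was most like 3110082I17Rik (0.96) and Ebf3 (0.95), Smad6 like Lnx1 (0.96) and Crispld1 (0.96), and Smad7 like Smco4 (0.90) and Mast4 (0.89). Id1 was most like Clu (0.96) and Cavin1 (0.94), and Id3 like the basement membrane genes Col4a1 (0.98) and Hspg2 (0.97).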

How the data were processed

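Single-cell RNA of 6 aortic tissue samples was measured. Values are UMI counts, deposited unscaled in 1 matrix of 55450 genes, with cellranger-6.1.2 as the writing software per the file headers. The submitters' processing notes list bcl2fastq 5.01, Cell Ranger 3.1.0, Seurat 3.1.1 and GRCm38. All 55450 identifiers matched GENCODE M21, used for coordinates. Barcode suffixes match no sample label, so the planned edgeR comparison of genotypes was not made.

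Barcodes under 500 genes or over 20% mitochondrial counts were dropped, and Scrublet doublets (3.02% to 11.3% per library) were removed. Cells were clustered (scanpy 1.11.5, 2000 variable genes without members or pathway genes, 30 components, 20 neighbours, Leiden 0.5) into 22 clusters. A cluster took the name of the marker list whose genes were on average furthest above the median cluster in log2 (5 CPM added), given 3 markers, leading genes not of another list and a second list at least 0.3 lower. Taking leading genes against the median cluster was chosen after 2 smooth muscle clusters had stayed unnamed against all cells. In all, 2080 cells stayed unnamed, 1943 of them shallow.

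Counts were summed per class and library as CPM. The 95% intervals are exact (Poisson for CPM, Clopper-Pearson for shares) and cover counting error only, as does the limit of 3 counts for a 0. Libraries held 7475 to 16269 barcodes, the most in library 5. Median depth was 4708 to 6289.5 UMIs per barcode, the lowest in library 5. The rules of size are given where first used. The scripts were tested on simulated data. Members and lists were chosen with earlier results of these data known. Named were all members, the placed genes and the 3 of highest CPM per pathway group, the 2 genes most like each member, and, after values were seen, Gdf2, Bmp10, leading genes and pathway genes of endothelial subcluster 1.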

Additional observations from a re-analysis of the deposited data

Results flagged for a closer look

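Each member's 6 library values were screened for a single library far from the others in 4 classes, for genes with 50 UMIs or more in every library, which gave 33 pairs of gene and class, and 3 were picked out. Chance picks about 1 in 20 such groups. Smad6 in fibroblast-like cells was 40.7 CPM in library 2, with the others between 15.5 and 23.1 CPM, and 27.1 CPM in library 2 without the small Tbx20 cluster found almost only there. Id3 in fibroblast-like cells was 1556 CPM in library 3, against 951 to 1121 CPM. Acvrl1 in endothelial-like cells was 289 CPM in library 5, against 197 to 220 CPM. Library 5 held 69 of 88 and 48 of 48 cells of the unnamed endothelial-like subclusters, whose part in this was not tested. In subcluster 1 alone it had 235 CPM, against 200 to 220 CPM. It was also highest in subclusters 0, 3, 4, 6 and 7, but not in subclusters 2 and 5.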

How the results depend on the processing

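Of 146 recomputed ratios between a member's highest and next class, 137 kept their size within the spread of libraries and 1 moved (Eng). Another 8 turned sign, all of Id3 in endothelial-like against fibroblast-like cells. For Bmp2 the spread came from 2 libraries with mesothelial-like cells and was so wide that its ratios could hardly move (log2 0.990 to 2.93, main 1.48). It had 11 settings and the others 15, since the mesothelial-like class of at least 200 cells was missing from the rest. The log2 ratio of Id3 was 0.0013, and it was -0.0041 with at least 200 genes per cell, -0.0034 with doublets kept, -0.093 with cells thinned and -0.051 with libraries weighted equally. Leaving out 1 library gave -0.045 (library 1), -0.021 (library 2), -0.038 (library 4) and -0.012 (library 5), and up to 0.087 otherwise. Members placed in 1 class numbered 1, and 2 with at most 10% mitochondrial counts, with member genes allowed in clustering, or with libraries weighted equally. They numbered 4 at a factor of 2 and 1 to 2 when leaving out 1 library, the second being Bmp2 without library 5. Pathway genes placed numbered 2, and 6 with at least 1000 genes per cell, 7 at 10% mitochondrial counts, 5 at resolution 1.0, 6 with members allowed, 1 by each cell's own markers, 11 at a factor of 2, 1 at a factor of 6, and 2 to 9 when leaving out 1 library (9 without library 5). Members that differed between smooth muscle-like clusters numbered 2, 1 at a factor of 3 and 2 to 3 when leaving out 1 library. Between endothelial-like subclusters they numbered 7, against 10 at a factor of 1.5 and 5 at a factor of 3. They numbered 8 at resolution 1.0 or with libraries weighted equally, and 6 to 9 when leaving out 1 library. Library ratios of at least 2 numbered 5, against 15 at a limit of 1.5, 1 at a limit of 3, 8 with doublets kept, 3 with cells thinned, and 2 to 5 when leaving out 1 library (2 without library 2, 3 without library 6). The cause of these moves was not tested. No paired analysis was possible because no barcode suffix could be tied to a sample, and the edgeR and DESeq2 comparisons of genotype were not run for the same reason. Depth limits Bmp6 outside endothelial-like cells and Smad6 in small classes, where few UMIs lie behind each library value.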
